A study of Mus musculus with 33 samples.

Results

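The cells described here were the E14.5 negative ventricular cardiomyocytes, ranked by their transcripts for 7 DNA replication genes. In each cell the CPM values (a gene's counts scaled to the same total in every cell) of Mcm2, Mcm3, Mcm4, Mcm5, Mcm6, Mcm7 and Pcna were summed. The 4 cells with the highest sums are called replication-high and the other 7 replication-low, which makes 11 of the 33 cells in the series. The 2 sets were thus chosen by these measured values, so the rank genes are given as a description, and no difference between the 2 sets of cells was given a p-value.

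The study sequenced single ventricular cells from mice carrying the mAG-hGem transgene, which joins a green fluorescent protein to a piece of geminin that is stable in S, G2 and M phase and destroyed in G1. Cells were sorted by this fluorescence in the fetus at embryonic day 14.5 (E14.5), giving 11 negative and 10 positive cells, and in the young animal at postnatal day 19 (P19), giving 4 negative and 8 positive cells, all transgenic. The promoter that drives the transgene, the strain, and the animals and litters behind the cells are not named in the labels. Each sample was 1 cell, so replication-high and replication-low each counted as 1 sample. Intervals given below cover the error of counting reads alone, and PCR copies of a molecule are not separate observations. Cells are numbered 1 to 11 in the order of their accessions, and no cell was labelled by cycle phase.

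A cell prepares for S phase in G1, when Cdc6 and Cdt1 load the ring of Mcm2 to Mcm7 proteins onto replication origins, a step called licensing that geminin blocks. At the G1/S border the E2F transcription factors are released from the retinoblastoma family and switch on the genes for licensing factors, polymerases, nucleotide synthesis and chromatin assembly. Pcna is the ring that clamps the polymerases to DNA at the moving fork. Genes for mitosis, such as Cdk1, Top2a and Mki67, are switched on later in the cycle. Fetal ventricular cardiomyocytes still divide, whereas most leave the cycle soon after birth.

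The replication sum was 12869 CPM in cell 8, 2460 CPM in cell 9, 2173 CPM in cell 11 and 1835 CPM in cell 4. The replication-low cells ran from 78.9 CPM in cell 6 through a median of 543 CPM to 1084 CPM in cell 10. The boundary lay between cell 4 and cell 10. Cell 8 stood far above the other 3 replication-high cells. The same 4 cells led when Pcna was left out of the sum, when the mean of log2(CPM + 1) over the 7 genes replaced it, and under TMM or DESeq2 scaling.

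**Figure D1:**
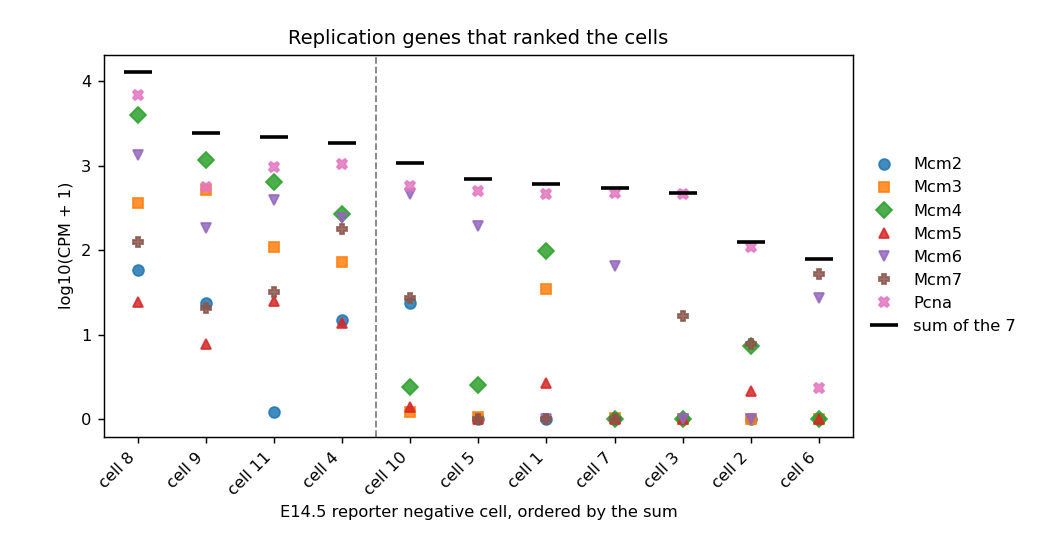
Level of each of the 7 rank genes, as log10(CPM + 1), in each of the 11 E14.5 negative cells, which are ordered on the horizontal axis by their sum (black bar). The dashed line separates the 4 replication-high from the 7 replication-low cells. Mcm4 (diamonds) lies between 270.0 and 4015 CPM on the left and at or below 98.04 CPM on the right.

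Mcm4, a subunit of the replicative helicase, was at 4015 CPM in cell 8, 1160 CPM in cell 9, 645 CPM in cell 11 and 270.0 CPM in cell 4. In the replication-low cells Mcm4 ran from 0 through a median of 1.42 CPM to 98.04 CPM in cell 1. Mcm4, Mcm3 and Mcm5 were higher in every replication-high cell than in any replication-low cell. Mcm3 lay between 72.3 and 510.2 CPM against at most 33.4 CPM, and Mcm5 between 6.77 and 23.9 CPM against at most 1.67 CPM. Mcm2, Mcm6, Mcm7 and Pcna overlapped. Mcm2 was at only 0.22 CPM in cell 11, and Mcm6 reached 459 CPM in cell 10, above cells 4, 9 and 11.

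Pcna separated the cells less than Mcm4. It was at 6949 CPM in cell 8, 559 CPM in cell 9, 968 CPM in cell 11 and 1045 CPM in cell 4. Among the replication-low cells it ran from 1.37 CPM in cell 6 through a median of 468 CPM to 574 CPM in cell 10, above cell 9. Pcna made up 22.7% to 56.9% of the replication sum in the replication-high cells. It made up 96.7% in cell 3 and 1.74% in cell 6, the extremes of the replication-low cells.

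The promoters of the rank genes are shown because E2F control of these genes is textbook knowledge and because the genes were read together here. The RefSeq table on GRCm38.p6 held 6 of the 7 genes. The 250 bases before each start were searched on both strands for 4 forms of an E2F type motif, TTTCCCGC, TTTCGCGC, TTTGCCGC and TTTGGCGC. Some of these forms overlap each other's reverse complement, so neighbouring matches can share bases. Of the 6 rank genes 3 held at least 1 match, against 3.94% of the 8748 genes with a promoter among those measured. Each sequence below gives the 200 bases before the start, 5′ to 3′ on the gene's strand, with the matched letters in capitals.
Mcm5, chr8:75109309-75109508 (plus strand): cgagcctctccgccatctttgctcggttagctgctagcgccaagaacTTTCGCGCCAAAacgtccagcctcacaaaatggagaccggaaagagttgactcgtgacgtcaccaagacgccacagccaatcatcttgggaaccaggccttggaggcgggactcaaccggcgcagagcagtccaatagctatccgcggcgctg
Mcm6, chr1:128359706-128359905 (minus strand): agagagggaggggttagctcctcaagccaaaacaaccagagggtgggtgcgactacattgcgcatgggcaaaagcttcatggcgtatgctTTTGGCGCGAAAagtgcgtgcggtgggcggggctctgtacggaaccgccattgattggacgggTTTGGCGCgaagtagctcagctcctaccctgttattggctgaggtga
Mcm7, chr5:138171884-138172083 (minus strand): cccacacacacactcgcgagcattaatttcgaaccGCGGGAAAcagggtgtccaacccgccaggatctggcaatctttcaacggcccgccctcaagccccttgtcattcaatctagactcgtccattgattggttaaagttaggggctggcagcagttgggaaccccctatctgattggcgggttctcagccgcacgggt
In Mcm5 the run of capitals holds 2 overlapping matches, in Mcm6 there are 3 matches, and in Mcm7 there is 1. A match is a description of letters and not evidence of binding.

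The 11 cells carried cardiomyocyte transcripts whichever side of the rank they fell on. Tnnt2, cardiac troponin T, had been used to keep the cells by PCR and was at 5237 CPM in the summed counts of the replication-high cells and 4374 CPM in those of the replication-low cells. Ryr2, the calcium release channel of the sarcoplasmic reticulum, was at 1110 and 1123 CPM. Nkx2-5, a cardiac transcription factor, was at 4.05 and 4.58 CPM, with counts in 4 of 4 and 7 of 7 cells. Pdgfrb, the other PCR marker, had no count in any of the 11 cells. The endothelial genes Cdh5 and Tie1 and the leukocyte gene Ptprc also had none, while other endothelial and macrophage genes were read in some cells.

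The replication-high cells had totals of 19951894 to 41071774 counts and the replication-low cells 7803327 to 55039928 counts. Genes with a count numbered 8104 to 9281 against 5924 to 8347. After every cell was thinned to the 7803327 counts of the shallowest these were 7694 to 9053 against 5867 to 8086. The replication-high cells thus held more detected genes, with overlap between the 2 sets, and the part of this in the results below was not tested. Cell 5, replication-low, held 60545 CPM of fibroblast genes, while the other 10 cells held 946 to 4052 CPM. Many results that rest on sums are therefore given also without cell 8.

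Over the 12314 genes with at least 10 counts in the 11 cells, the log2 ratio of replication-high to replication-low CPM of summed counts had a median of -0.01. Differences of 2-fold or more were common between 2 sets of so few cells. At least 2-fold higher in replication-high cells were 29.5% of these genes, and at least 2-fold lower were 30.6%. Without cell 8 these were 27.2% and 33% of 12018 genes, and the median was -0.10. The stricter count asked that a gene be higher in each of the 4 replication-high cells than in any of the 7 replication-low cells. It took 71 genes, or 0.577%, and the reverse took 4 genes, or 0.0325%. Without cell 8 these counts were 190 genes (1.58%) and 12 genes (0.0999%).

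Genes of DNA synthesis outside the rank lay higher in the replication-high cells as a group. The 7 S phase lists (licensing, origin firing and fork, polymerases, clamp loading and lagging strand, nucleotide supply, chromatin assembly, and S phase repair) held 113 measured genes. Of these 83 were at least 2-fold higher, 7 at least 2-fold lower and 23 in between, beside 29.5% higher and 30.6% lower of all genes. Their median log2 ratio was 2.46, beside the -0.01 of all genes. With no count in the replication-low cells, 8 of the 113 reached the minimum of 10 counts only through the replication-high cells. Their place among the higher genes was thus set by that minimum. Others, among them Cdc6, Cdc7 and Rad18, had fewer than 10 counts in the replication-low cells. Without cell 8 the counts were 66 higher and 8 lower of 110, beside 27.2% and 33% of all genes, with a median of 1.56. Without cells 5 and 8 the median was 1.75. Of the 113 genes 7 were non-overlapping and higher, beside 0.577% of all genes. These 7 of the 71 non-overlapping genes were Cdc7, Prim2, Pold1, Rrm2, Dnmt1, Chaf1b and Rad18.

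**Figure D2:**
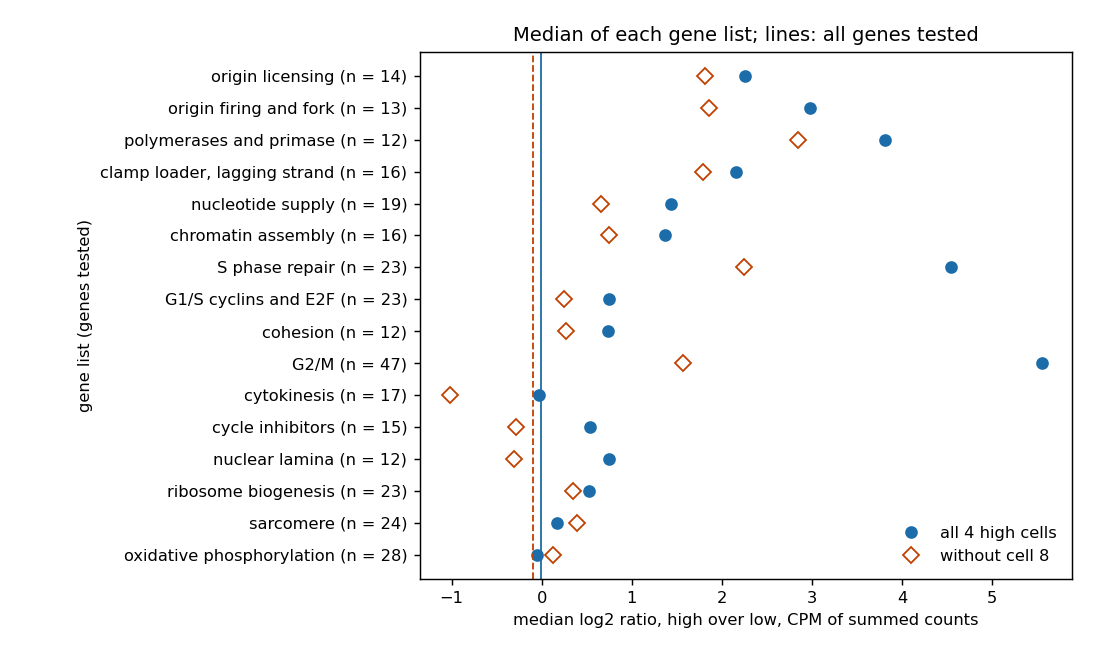
Median log2 ratio of replication-high to replication-low CPM of summed counts for each gene list, with the number of measured genes beside its name. Filled circles use all 4 replication-high cells, open diamonds leave out cell 8, and the solid and dashed lines give the medians of all genes, -0.01 and -0.10. Without cell 8 the medians of the 7 S phase lists at the top are lower but at or above 0.66. The G2/M median moves from 5.55 to 1.56, and the median over all genes of the 7 S phase lists moves from 2.46 to 1.56.

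Among licensing genes 9 of 14 were at least 2-fold higher and 2 at least 2-fold lower, beside 29.5% and 30.6% of all genes. The licensing genes had a median of 2.26, or 1.81 without cell 8. Their summed level did not overlap, at 908 to 2071 CPM in the replication-high cells and 174 to 865 CPM in the replication-low cells. Cdt1, the factor that brings the Mcm ring to the origin, was at 322 CPM in cell 8, 115 CPM in cell 9, 26.7 CPM in cell 11 and 136 CPM in cell 4. Of the replication-low cells 1 had Cdt1 counts, cell 10 at 48.9 CPM, above cell 11. The log2 ratio of sums was 3.59 (95% counting interval 3.53 to 3.64), and 2.71 without cell 8.

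Gmnn, which encodes geminin, the inhibitor of Cdt1 and the protein from which the reporter was made, was at 172, 215, 288 and 67.1 CPM in cells 8, 9, 11 and 4. The replication-low cells ran from 0 through 18.6 CPM to 90.7 CPM in cell 7, so cell 4 lay among them. The log2 ratio was 1.99, with a counting interval of 1.96 to 2.02, and 2.06 without cell 8. All 11 cells had been sorted as reporter negative, and the reporter is read as protein, not as this transcript.

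Cdc6, the loading partner of Cdt1, was at 97.1 CPM in cell 8, 0 in cell 9, 3.84 CPM in cell 11 and 2.31 CPM in cell 4. The replication-low cells held 4 Cdc6 counts in all, at most 0.26 CPM in a cell. Orc1, a subunit of the origin recognition complex, was at 98.5 CPM in cell 8, 2.43 CPM in cell 11 and 0 in cells 9 and 4. Orc1 reached 14.9 CPM in cell 2, and its log2 ratio of 4.78 was -0.61 without cell 8. Orc4, another subunit of that complex, lay the other way, at 39.5 to 114 CPM against 0 to 239 CPM, with a log2 ratio of -0.55. The non-overlapping member of the licensing list was Cdc7, on chr5:106964322-106984432, the kinase that acts on the loaded Mcm ring to fire an origin. It was at 395 CPM in cell 8, 27.7 CPM in cell 9, 7.52 CPM in cell 11 and 87.5 CPM in cell 4. The 7 replication-low cells held 4 Cdc7 counts in all, in 1 cell, at 0.07 CPM. The log2 ratio was 12.86 with a counting interval of 11.50 to 14.74, and 10.74 without cell 8.

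Among the genes of origin firing and the fork 10 of 13 were at least 2-fold higher and 1 at least 2-fold lower. These counts stand beside the 29.5% and 30.6% of all genes. The list had a median of 2.98, or 1.85 without cell 8. The summed list did not overlap, at 462 to 1149 CPM against 0.33 to 368 CPM, while no single gene of the list was non-overlapping.

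Topbp1, which helps to bring Cdc45 to the helicase, was at 350.1, 250.2, 31.0 and 258 CPM in cells 8, 9, 11 and 4. It had counts in 3 of 7 replication-low cells, up to 66.5 CPM, above cell 11. Cdc45, a component of the active helicase, was at 130.1, 10.8, 0 and 22.7 CPM in those 4 cells, and the replication-low cells held 4 counts in all. Tipin, a fork protection factor, was at 39.4, 111, 262 and 58.7 CPM, and reached 195 CPM in the replication-low set. Donson, a replisome assembly factor, was at 70.3 CPM in cell 8 and 25.4 CPM in cell 9 and had no count in the other 9 cells.

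The polymerase and primase list had 11 of 12 genes 2-fold or more higher and 1 lower, beside 29.5% and 30.6% of all genes. Its median was 3.81, and 2.84 without cell 8. The summed list ran from 272 to 1435 CPM in the replication-high cells and from 15.5 to 266 CPM in the replication-low cells, a narrow separation of cell 4 from cell 7. Prim2, the large subunit of primase, which lays the RNA primers, had the widest separation of all named genes. It lies on chr1:33453810-33669795 and was at 163 CPM in cell 8, 47.5 CPM in cell 9, 14.9 CPM in cell 11 and 60.6 CPM in cell 4. The 7 replication-low cells held 11 Prim2 counts in all, at most 0.15 CPM in a cell. Its log2 ratio was 10.47 (counting interval 9.63 to 11.47), and 9.46 without cell 8.

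Pola1, the catalytic subunit of the polymerase that works with primase, was at 203 CPM in cell 8, 221 CPM in cell 9, 0.59 CPM in cell 11 and 22.2 CPM in cell 4. It reached 12.7 CPM in the replication-low set, above cell 11. Pole, the catalytic subunit of the leading strand polymerase, was at 167 CPM in cell 8 and at most 0.30 CPM in the other replication-high cells, with no count in the 7 replication-low cells. Pold1, the catalytic subunit of the lagging strand polymerase, was non-overlapping but rested on 2 cells, at 57.9 CPM in cell 11, 3.72 CPM in cell 9 and 0.05 CPM in cells 4 and 8. The replication-low cells had no Pold1 count. Pole was thus highest in cell 8, Pola1 in cell 9 and Pold1 in cell 11, while cell 8 held both Pole and Pola1.

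Beside 29.5% and 30.6% of all genes, 13 of 16 clamp loading and lagging strand genes were at least 2-fold higher and 1 lower. Their median was 2.16, or 1.79 without cell 8. None was non-overlapping, and the summed list overlapped at 258 to 1209 CPM against 81.8 to 615 CPM. Fen1, the nuclease that trims Okazaki fragments, was at 20.9, 29.8, 0 and 36.4 CPM in cells 8, 9, 11 and 4. There were 2 Fen1 counts in the replication-low cells, and the log2 ratio of 11.02 had a counting interval of 9.17 to 14.07. Rfc4, a clamp loader subunit, was at 18.7, 22.2, 0 and 3.96 CPM, again with 2 counts in the replication-low cells. Its log2 ratio was 10.33, with a counting interval of 8.48 to 13.38. Rfc1, the large clamp loader subunit, was read in all 7 replication-low cells, up to 497 CPM, and its log2 ratio of 1.18 was -1.18 without cell 8.

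Nucleotide supply genes were higher by less. Of 19 genes 12 were at least 2-fold higher and 1 at least 2-fold lower, beside 29.5% and 30.6% of all genes. The median was 1.44. Without cell 8 the counts were 7 and 0, beside 27.2% and 33% of all genes, and the median 0.66. The summed list overlapped at 2822 to 7683 CPM against 1285 to 3736 CPM, with cell 10 above cells 4, 9 and 11. Rrm2, the small subunit of ribonucleotide reductase, lies on chr12:24708241-24714146 and was at 646 CPM in cell 8, 41.2 CPM in cells 9 and 11 and 126 CPM in cell 4. The replication-low cells ran from 0 through 0.56 CPM to 24.1 CPM, with counts in 4 of 7 cells and no overlap. The log2 ratio of Rrm2 was 4.83 (4.76 to 4.90), and 2.78 without cell 8.

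Tyms, thymidylate synthase, rested mainly on cells 8 and 4. It was at 354, 9.70, 0 and 112 CPM in cells 8, 9, 11 and 4, against at most 73.4 CPM. Paics, an enzyme of purine synthesis, was read in every cell, at 1286 to 2184 CPM against 378 to 2734 CPM, with a log2 ratio of 0.37.

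Chromatin assembly genes had 10 of 16 members at least 2-fold higher and none lower, beside 29.5% and 30.6% of all genes. The median was 1.37, or 0.74 without cell 8. The summed list overlapped at 3679 to 6713 CPM against 1673 to 6852 CPM, with cell 10 above all 4 replication-high cells. Dnmt1, the methyltransferase that copies DNA methylation onto the new strand, was at 52.3 CPM in cell 8, 56.0 CPM in cell 9, 65.6 CPM in cell 11 and 8.57 CPM in cell 4. It lies on chr9:20907209-20959888 and was at most 2.60 CPM in the replication-low cells. The log2 ratio of Dnmt1 was 7.90 (7.45 to 8.38), and 7.85 without cell 8, so cell 8 did not set it. Chaf1b and Chaf1a encode subunits of the factor that places histones behind the fork. Chaf1b was non-overlapping but low, at 0.10 to 9.35 CPM against 2 counts in all, with a log2 ratio of 8.59 (6.73 to 11.64), or 7.05 without cell 8. Chaf1a was at 297 CPM in cell 8 and at most 1.03 CPM in any other cell of the replication-high set. The histone chaperones Nasp and Rbbp7 were abundant in both sets, with log2 ratios of 0.54 and -0.09.

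The S phase repair list had 18 of 23 genes at least 2-fold higher and 1 lower, beside 29.5% and 30.6% of all genes. The median was 4.55. Without cell 8 the counts were 14 and 1 of 21, beside 27.2% and 33% of all genes, and the median 2.25. The summed list overlapped at 358 to 6002 CPM against 65.6 to 1396 CPM, with cell 1 above cells 4 and 11. Rad18 and Usp1, the ligase and the protease that add ubiquitin to Pcna and remove it, were both higher. Rad18 was at 323 CPM in cell 8, 0.22 CPM in cell 9, 34.0 CPM in cell 11 and 12.6 CPM in cell 4, against 3 counts in all. Its log2 ratio was 12.87, with a counting interval of 11.32 to 15.14, and 9.83 without cell 8. Usp1 was at 2337, 402, 42.3 and 432 CPM in cells 8, 9, 11 and 4, and from 0 through 97.7 CPM to 284 CPM in the replication-low cells. Ung, which removes uracil from DNA, was at 518, 647, 0.26 and 188 CPM, with up to 272 CPM in the replication-low set. Cell 11 was the low one of the 4 for both Usp1 and Ung.

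**Figure D3:**
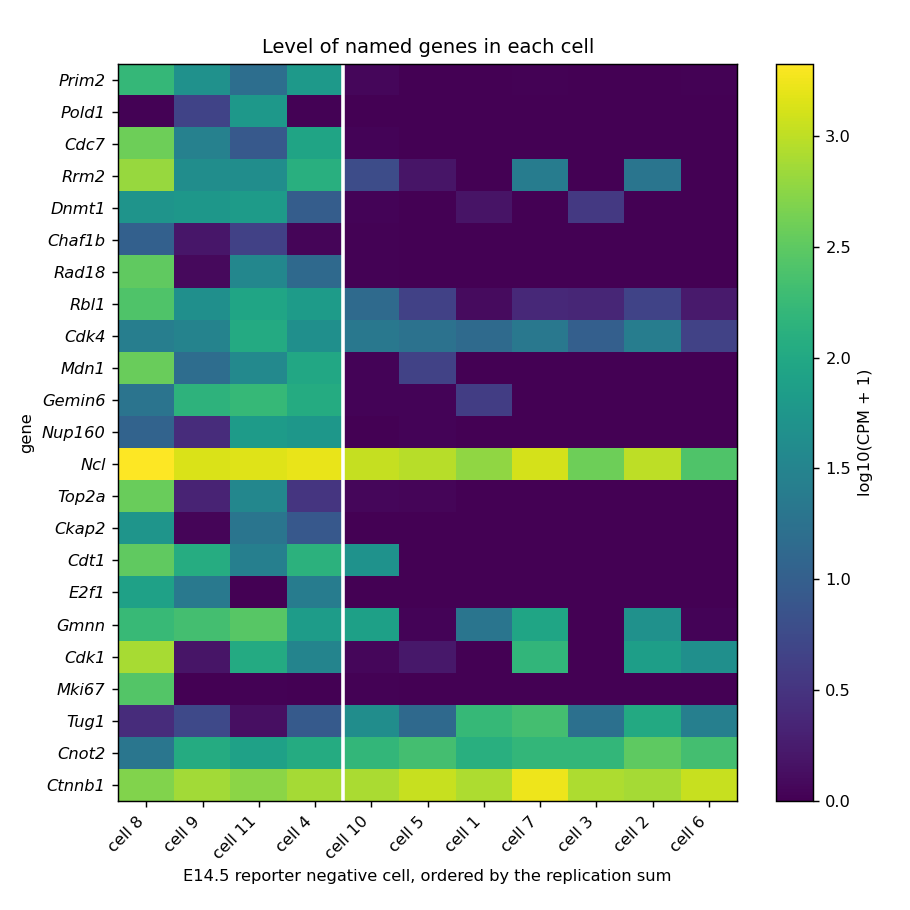
Level of 23 named genes in each E14.5 negative cell, as log10(CPM + 1), with cells ordered by the replication sum and the white line between the 4 replication-high and the 7 replication-low cells. Prim2, Cdc7 and Rbl1 are coloured in all 4 cells on the left, Mki67 only in cell 8, and Tug1 is darker on the left.

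Genes of the G1/S switch were mixed. Of 23 measured cyclin, cyclin-dependent kinase and E2F genes 11 were at least 2-fold higher and 3 lower, beside 29.5% and 30.6% of all genes. The median was 0.75. Without cell 8 the counts were 8 and 6, beside 27.2% and 33% of all genes, and the median 0.25. Cdk4, the kinase that partners the D cyclins, was the non-overlapping gene of this list. It was at 25.2 CPM in cell 8, 29.8 CPM in cell 9, 109 CPM in cell 11 and 44.96 CPM in cell 4, and from 3.51 through 17.0 to 25.1 CPM in the replication-low cells. The gap between cell 8 and the highest replication-low cell was thus small, and exons of Cdk4 overlap those of Tspan31 on the other strand. Exons of Mcm7, Orc4, Donson, Rfc4, Paics, Chaf1a, Rbbp7, Ccne2, Ccna2 and Myl2 also overlap those of a gene on the other strand. Whether the counting used strand is not stated. The log2 ratio of Cdk4 was 1.48 (1.42 to 1.54), and 1.78 without cell 8.

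E2f1, an activating member of the E2F family, was at 79.1 CPM in cell 8, 21.3 CPM in cell 9, 0 in cell 11 and 23.9 CPM in cell 4. No replication-low cell had an E2f1 count. Ccne1, cyclin E1, which drives entry into S phase with Cdk2, was at 55.1, 0, 3.76 and 5.16 CPM in cells 8, 9, 11 and 4. The replication-low cells held 2 Ccne1 counts, giving a log2 ratio of 10.90 (9.05 to 13.95), or 7.89 without cell 8. Ccne2 showed no such separation, at 19.6 CPM in cell 8, 70.9 CPM in cell 2 and 0 in the other 9 cells. Skp2, which recognises proteins for destruction at the G1/S border, was at 130.4 CPM in cell 8 and 50.7 CPM in cell 4, with 0 in cells 9 and 11 and 4 counts in the replication-low cells.

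Rbl1, the p107 member of the retinoblastoma family and itself an E2F target, belongs to the cycle inhibitor list. It lies on chr2:157145893-157204534 and was at 257 CPM in cell 8, 44.7 CPM in cell 9, 90.0 CPM in cell 11 and 67.0 CPM in cell 4. The replication-low cells ran from 0.26 through 1.39 CPM to 12.95 CPM in cell 10. Rbl1 was read in all 11 cells without overlap, and its log2 ratio was 4.66 (4.57 to 4.76), and 3.68 without cell 8. The inhibitor list, Rbl1 included, did not lie to 1 side. Of 15 genes 4 were at least 2-fold higher and 4 at least 2-fold lower, beside 29.5% and 30.6% of all genes. Without cell 8 the counts were 5 and 3, and the median went from 0.53 to -0.29. Cdkn1c, the p57 inhibitor, was at 212 to 630.4 CPM against 104 to 3228 CPM, with a log2 ratio of -1.17. Btg2, an antiproliferative gene, was at 78.2 to 686 CPM against 4.18 to 2865 CPM, with a log2 ratio of -1.29.

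The promoters of Cdc6 and Rbl1 are shown as members outside the rank that hold the E2F type letters. Of the 91 S phase genes with a promoter given 15 held a match (16.5%), of the G1/S list 6 of 16 (37.5%), of the 71 non-overlapping genes 4 of 51 (7.84%) and of the G2/M list 2 of 42 (4.76%), beside the 3.94% of all genes. Both sequences again give the 200 bases before the start on GRCm38.p6, with the matched letters in capitals.
Cdc6, chr11:98907951-98908150 (plus strand): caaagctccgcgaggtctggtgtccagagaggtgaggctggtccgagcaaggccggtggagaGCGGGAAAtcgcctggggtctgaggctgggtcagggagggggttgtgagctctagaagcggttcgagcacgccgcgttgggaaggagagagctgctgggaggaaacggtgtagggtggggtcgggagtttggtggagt
Rbl1, chr2:157204535-157204734 (minus strand): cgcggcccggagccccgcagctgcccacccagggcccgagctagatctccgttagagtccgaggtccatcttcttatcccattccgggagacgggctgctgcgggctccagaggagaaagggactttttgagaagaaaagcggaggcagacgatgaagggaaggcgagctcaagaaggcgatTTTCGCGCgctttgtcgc
The Cdc6 match reads on the opposite strand, and the Rbl1 match begins 18 bases before the start.

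Transcripts of the later cycle were read in every replication-high cell, but at unequal levels. The G2/M list summed to 5509 CPM in cell 8, 798 CPM in cell 9, 2035 CPM in cell 11 and 995 CPM in cell 4. The replication-low cells ran from 323 through 590 CPM to 1433 CPM in cell 1, so cells 9 and 4 lay among them. All 10 E14.5 positive cells, at 2761 to 24973 CPM, were above every replication-low cell, and cell 8 alone of the negative cells lay within their range. By ratio 40 of 47 genes were at least 2-fold higher and 1 at least 2-fold lower, beside 29.5% and 30.6% of all genes. The median was 5.55. Without cell 8 the counts were 21 and 5 of 36, beside 27.2% and 33% of all genes, and the median was 1.56. The genes lost between 47 and 36 had reached the minimum of 10 counts only through cell 8. Their place among the higher genes was thus largely set by that minimum. Without cells 5 and 8 the median was 1.53.

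**Figure D4:**
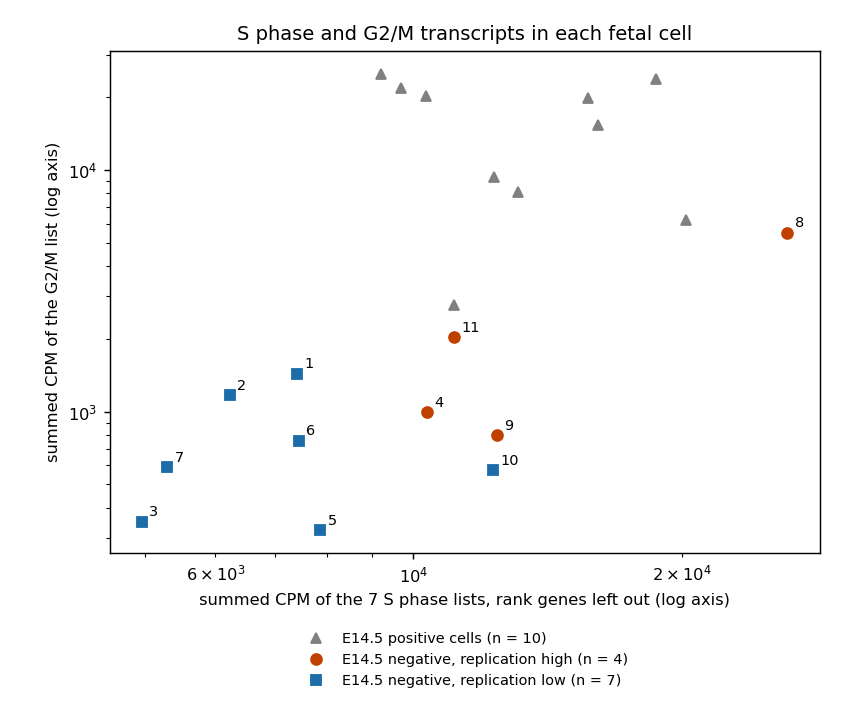
Summed CPM of the 7 S phase lists without the rank genes (horizontal, log axis) against summed CPM of the G2/M list (vertical, log axis) for the 21 E14.5 cells, with the negative cells numbered. The replication-high cells lie at 10367 CPM of S phase genes or more together with replication-low cell 10, and cell 8 is the negative cell with the most transcripts of both lists.

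Mki67, the proliferation antigen, was at 272 CPM in cell 8 and at most 0.04 CPM in each of the other 10 negative cells. Ccna2, cyclin A2, was at 90.7 CPM in cell 8, 0.04 CPM in cell 11 and 0 in cells 9 and 4, with at most 7.24 CPM in the replication-low set. Its log2 ratio of 5.65 was -5.64 without cell 8. Cdk1, the mitotic kinase, was at 768 CPM in cell 8, 0.54 CPM in cell 9, 107 CPM in cell 11 and 30.8 CPM in cell 4, beside up to 154 CPM in the replication-low cells. Its log2 ratio of 2.51 was -0.22 without cell 8.

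Top2a and Ckap2 were the 2 non-overlapping genes of the G2/M list. Top2a, the topoisomerase that untangles sister DNA, was at 369 CPM in cell 8, 1.17 CPM in cell 9, 34.0 CPM in cell 11 and 2.31 CPM in cell 4, against 11 counts in all in the replication-low cells. Ckap2, a spindle protein, was at 53.5, 0.11, 18.5 and 7.37 CPM, with no count in the replication-low cells. Cells 8 and 11 led for both genes. Smc4, a condensin subunit, was read in every negative cell, at 20.6 to 641 CPM against 0.47 to 565 CPM, and its log2 ratio of 0.94 was -0.97 without cell 8.

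The promoters of Cdk1 and Top2a are shown beside those above because they hold the letters of the CHR type motif of late cycle genes, TTTGAA, searched on both strands. It was found in 17 of 42 G2/M genes (40.5%), 15 of 91 S phase genes (16.5%) and 12.7% of all genes with a promoter. Capitals mark these letters in the 200 bases before the start on GRCm38.p6.
Cdk1, chr10:69352913-69353112 (minus strand): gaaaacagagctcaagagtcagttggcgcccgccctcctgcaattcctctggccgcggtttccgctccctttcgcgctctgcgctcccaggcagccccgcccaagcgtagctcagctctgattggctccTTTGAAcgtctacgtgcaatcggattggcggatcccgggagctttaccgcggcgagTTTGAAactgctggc
Top2a, chr11:99024190-99024389 (minus strand): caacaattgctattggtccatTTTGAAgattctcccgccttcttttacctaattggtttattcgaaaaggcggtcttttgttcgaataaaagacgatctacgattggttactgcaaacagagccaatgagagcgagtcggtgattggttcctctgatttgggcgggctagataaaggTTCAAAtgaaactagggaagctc
Each of these promoters holds 2 matches.

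Cytokinesis genes lay on both sides, as did all genes, of which 29.5% were at least 2-fold higher and 30.6% lower. In this list 5 of 17 genes were at least 2-fold higher and 5 at least 2-fold lower. The median was -0.03, or -1.02 without cell 8. Ect2, the exchange factor that sets the division plane, was at 265 CPM in cell 8 and at most 0.15 CPM in cells 4, 9 and 11. The replication-low set reached 217 CPM, with counts in 4 of 7 cells, and the log2 ratio of 0.53 was -9.72 without cell 8. Sept7, a septin of the division ring, was at 133 to 477 CPM against 132 to 1393 CPM, with a log2 ratio of -1.51. Of the cohesion list 5 of 12 genes were at least 2-fold higher and 1 at least 2-fold lower, and the median was 0.73, or 0.26 without cell 8. These counts too stand beside the 29.5% and 30.6% of all genes.

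Of 12 nuclear lamina genes 4 were at least 2-fold higher and 2 at least 2-fold lower, beside 29.5% and 30.6% of all genes. The median was 0.75, or -0.31 without cell 8. Lmnb2, lamin B2, the gene named in the series title, was very low throughout. It was at 0.15 CPM in cell 8, 0.11 CPM in cell 9, 1.77 CPM in cell 11 and 0.05 CPM in cell 4, with 48 of its 59 counts in cell 11, and had no count in the replication-low cells. In the E14.5 positive cells Lmnb2 ran from 0.19 through a median of 2.39 CPM to 26.6 CPM. Tmpo, which encodes the lamina-associated polypeptide 2 proteins, was at 2320.1, 1123, 853 and 540.2 CPM in cells 8, 9, 11 and 4. It was at most 163 CPM in 5 of the 7 replication-low cells but reached 1916 CPM in the set, so the ranges overlapped at a log2 ratio of 2.41.

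Of the 71 non-overlapping genes 58 belonged to no list. Among all 71, list members included, those at 20 CPM or more in the summed replication-high counts with the widest gap on the log2(CPM + 1) scale were, in order of gap, Prim2, Ano4, Cdc7, Gemin6, Fam149b, Mdn1, Rbl1, Ankrd13c, Herc1, Dnmt1, Fam107b and Nup160. Mdn1, an ATPase that releases factors from the maturing large ribosomal subunit, was at 372, 14.2, 36.1 and 98.9 CPM in cells 8, 9, 11 and 4. It had counts in 2 of 7 replication-low cells, at most 3.48 CPM, and a log2 ratio of 8.05 (7.78 to 8.33), or 6.19 without cell 8. Gemin6, a component of the SMN complex that assembles splicing particles, was at 17.9, 142, 170.3 and 111 CPM against at most 3.08 CPM. Its log2 ratio of 9.37 (8.85 to 9.94) was 9.86 without cell 8.

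Nup160, a scaffold protein of the nuclear pore, was at 10.5, 1.63, 65.4 and 56.2 CPM in cells 8, 9, 11 and 4, against 2 counts in the replication-low cells. The log2 ratio of Nup160 was 11.36, with a counting interval of 9.50 to 14.40. Ano4, of the anoctamin family, was at 47.0, 25.2, 11.9 and 20.2 CPM in the same order, against at most 0.40 CPM. Fam107b was at 173, 62.1, 129 and 10.4 CPM against at most 3.50 CPM, and Ankrd13c at 10.2, 53.9, 100.1 and 10.2 CPM against at most 2.46 CPM. Fam149b was at 18.5, 103, 101 and 51.7 CPM against at most 4.49 CPM. Herc1, a large ubiquitin ligase, was at 11.8, 105, 84.4 and 23.1 CPM against 0.12 to 3.17 CPM, with counts in all 11 cells, and its exons overlap those of Fbxl22 on the other strand. Where 1 replication-low cell held most of a gene's counts in that set, the ratio was higher without it, for example at 12.58 for Mdn1 without cell 5, 11.63 for Gemin6 without cell 1 and 10.12 for Dnmt1 without cell 3. Cell 8 was not the highest cell for Gemin6, Fam149b, Ankrd13c, Herc1 or Nup160.

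Ribosome biogenesis as a list did not follow Mdn1. Of 23 genes 7 were at least 2-fold higher and 6 at least 2-fold lower, beside 29.5% and 30.6% of all genes. The median was 0.53, or 0.34 without cell 8. Ncl, nucleolin, was its non-overlapping member, at 2123, 1379, 1474 and 1659 CPM in cells 8, 9, 11 and 4 and 253 through 929 to 1313 CPM in the replication-low cells. The log2 ratio of Ncl was 0.85 (0.84 to 0.86), a small difference between well-read levels. Npm1, nucleophosmin, overlapped, with a log2 ratio of -0.17.

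The 4 genes lower in every replication-high cell were Tug1, Cnot2, Ctnnb1 and Il1rapl2, the last at hardly any count. Tug1, a long noncoding RNA, was at 1.66, 4.43, 0.37 and 7.87 CPM in cells 8, 9, 11 and 4, and from 12.9 through 42.0 to 214 CPM in the replication-low cells. Its log2 ratio was -4.75 (-4.90 to -4.61), and -4.45 without cell 8. Exons of Tug1 overlap those of Morc2a on the other strand. Cnot2, a scaffold of the CCR4-NOT deadenylase, was at 19.2 to 111 CPM against 126 to 316 CPM, with a log2 ratio of -1.34. Ctnnb1, beta-catenin, was at 498 to 753 CPM against 755 to 1728 CPM, with a log2 ratio of -0.84, and the nearest cells of the 2 sets were 753 and 755 CPM. Exons of Ctnnb1 overlap those of Ulk4 on the other strand.

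Most cardiomyocyte and energy genes were within 2-fold in the summed counts. Of all genes 29.5% were at least 2-fold higher and 30.6% lower, or 27.2% and 33% without cell 8. Of 24 sarcomere genes 2 were at least 2-fold higher and 1 at least 2-fold lower (median 0.17), and of 15 cardiomyocyte identity genes 2 and 1 (median -0.02). Of 28 oxidative phosphorylation genes none was 2-fold apart (median -0.05), and of 17 fatty acid oxidation genes 1 was higher and 2 lower (median -0.24). Without cell 8 the higher and lower genes numbered 3 and 1 for the sarcomere (median 0.39), 3 and 1 for identity (0.27), 5 and 0 for oxidative phosphorylation (0.12) and 1 and 1 for fatty acid oxidation (0.04). In that setting 2 oxidative phosphorylation genes and 1 sarcomere gene were non-overlapping, beside 1.58% of all genes. Actc1, cardiac actin, was at 4486, 8222, 8008 and 13291 CPM in cells 8, 9, 11 and 4, and from 4985 to 12035 CPM in the replication-low cells. Cell 8 was below every replication-low cell for this gene. Myl2, the ventricular light chain, was at 3278, 4888, 9011 and 11350.4 CPM against 1808 to 5839 CPM.

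Markers of other heart cells were read in both sets. The counts of each list stand beside the 29.5% higher and 30.6% lower of all genes. In the fibroblast list 13 of 17 genes with enough counts were lower by 2-fold or more in the replication-high cells, with a median of -5.48, and this median was 1.79 when cell 5 was left out. In cell 5 Postn, a secreted matrix protein, was at 45688 CPM, and it was at 0 in the other 6 replication-low cells and at most 6.86 CPM in the replication-high cells. Summed endothelial genes were at 1.29 to 180 CPM against 0.04 to 91.7 CPM, with 5 of the 16 at 0 in all 11 cells. Of the 10 endothelial genes tested 6 were 2-fold or more higher and 3 lower, beside 29.5% and 30.6% of all genes. Of these 10 genes 7 had no count in 1 of the 2 sets, so the minimum of 10 counts set their side. The median of 3.63, or 3.79 without cell 8, rested on such genes, placed at the floor. Endothelial genes were read mostly in single cells, with Tek at 174 CPM in cell 4, Vwf at 51.5 CPM in cell 8 and Ramp2 at 90.3 CPM in cell 5. Summed mural genes were at 246 to 1659 CPM against 253 to 2081 CPM, and epicardial genes at 0 to 395 CPM against 0 to 741 CPM. Of 6 mural genes 1 was higher and 1 lower by that measure (median -0.04, or 0.53 without cell 8), and of 4 epicardial genes 2 and 1 (median 2.33, or 0.03 without cell 8). Macrophage genes summed to at most 2.64 CPM against 229 CPM, with 7 of 10 at 0 throughout, and Lyz2 was at 229 CPM in cell 6, 25.5 CPM in cell 5 and 22.2 CPM in cell 10. The part of these cells' transcripts in the results was not tested.

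The titles of the cells carry a number whose meaning the labels do not give, and 3 of the 4 replication-high cells have numbers from 21 to 30 while 4 of the 7 replication-low cells have numbers from 1 to 10. Among cells numbered 21 to 30, with 3 replication-high and 3 replication-low, 81 of 110 genes of the S phase lists were higher by 2-fold or more beside 36.9% of all genes, with a median of 3.23. Among cells numbered 1 to 10, with 1 against 4, these were 60 of 99 beside 30.9%, with a median of 1.72. The S phase median was above 0 in both ranges.

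The E14.5 positive cells took no part in the rule. Their replication sum ran from 160 through a median of 2361 to 11131 CPM, and 7 of 10 lay above the highest replication-low cell. In the 12 P19 cells it was 3.47 to 181 CPM. The 3 lower replication-high cells thus had sums near the median of the positive cells. The S phase lists without the rank genes summed to 10367 to 26261 CPM in the replication-high cells, 9211 to 20212 CPM in the positive cells and 4968 to 12290 CPM in the replication-low cells.

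Across the 10 positive cells, each gene was set against the replication sum by Spearman's rho, as a description over 10 libraries that share the division by the cell's total. Of the 10466 genes with counts in at least 3 of these cells 63.1% had a rho above 0, and their median was 0.13. Among S phase genes 90 of 113 had a rho above 0, with a median of 0.31. Among G2/M genes 5 of 47 did, with a median of -0.56. Of the 71 non-overlapping genes 69 had a rho, which was above 0 for 48 and had a median of 0.18, near that of all genes. Named genes differed, with Prim2 at 0.67, Dnmt1 at 0.71, Mdn1 at 0.68 and Rbl1 at 0.48, but Cdc7 at 0.27, Herc1 at -0.22, Top2a at -0.68 and Mki67 at -0.71.

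**Figure D5:**
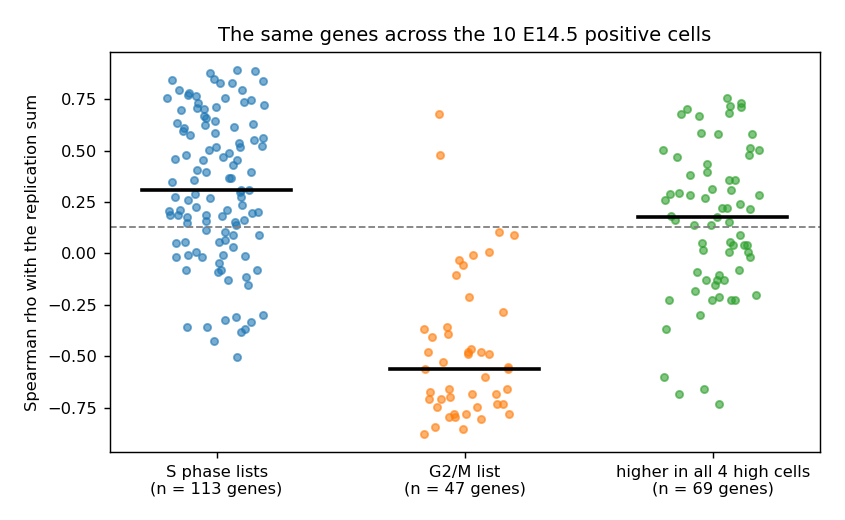
Spearman's rho between each gene's CPM and the replication sum across the 10 E14.5 positive cells, for the 113 S phase genes, the 47 G2/M genes and the 69 genes that were higher in all 4 replication-high cells. Each point is a gene, black bars are medians (0.31, -0.56 and 0.18), and the dashed line is the median of all genes, 0.13.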

How the data were processed

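Single ventricular cells were sorted by the reporter, kept by PCR for a cardiomyocyte marker and sequenced from TruSeq libraries, per the labels' protocols. The submitters' processing notes name CASAVA 1.8.2, STAR 2.4.0j, HTSeq 0.6.1p1 and the genome build mm10. Their settings, strand use and any handling of duplicates were, in the sources used here, not given. Raw counts were deposited by the authors, without normalization, for 20728 genes and 33 cells, and no column was left out.

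Counts were divided by each cell's total to give CPM. Replication-high and replication-low counts were summed and compared as a log2 ratio of CPM, with exact Poisson and conditional binomial 95% intervals, over genes with at least 10 counts in the 11 cells. A gene at 0 in 1 set was placed at a floor of 3 counts over that set. Each set counted as 1 sample, so no p-value was computed. The cells, lists and genes described were chosen with earlier results of these data known. The 32 lists held 527 genes, of which 516 were found, 3 by another symbol. The 11 not found were Asf1a, Rad9a, Pkm, Eci1, Hba-a1, Hba-a2, Hbb-bs, Hbb-bt, Hbb-b1, Ahsp and Xist.

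Named genes were the 7 rank genes, Gmnn, Cdt1, Ccne1, Ccne2, Ccna2, E2f1, Cdk1, Mki67, Ect2 and Lmnb2, and up to 12 in each direction with the widest gap between the sets at 20 CPM or more. From each list they were the non-overlapping members, the 2 most abundant and the 2 of largest ratio, some of which are not reported here. Tnnt2, Ryr2, Nkx2-5, Pdgfrb, Cdh5, Tie1, Ptprc and Il1rapl2 were named outside this rule.

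Alternatives were the mean CPM over cells, the difference between means of log2(CPM + 1), TMM factors (edgeR 4.0.16), size factors (DESeq2 1.42.0), thinning to 7803327 counts, minimums of 100 or 1 counts and leaving out each cell. Added after seeing the data were the 2 title number ranges and leaving out cells 5 and 8. Gene positions came from GENCODE vM21 and promoters from RefSeq, both on GRCm38. Python 3.11.15, numpy 2.4.6, pandas 2.3.3, scipy 1.17.1, matplotlib 3.10.9 and R 4.3.3 were used, and the ratio calculation was tested on simulated data.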

Additional observations from a re-analysis of the deposited data

Results flagged for a closer look

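In 34 measures looked at over the 4 replication-high or the 7 replication-low cells, 5 had 1 cell far from the rest by Dixon's criterion, which chance meets in about 1 in 20 sets. In the replication-high set cell 8 stood apart for the replication sum, at 12869 CPM, and for nucleotide supply genes, at 7683 CPM. The replication sum was the value by which the cells were chosen. The chance rate therefore does not hold for that sum, and its flag is a description only. In the replication-low set cell 10 stood apart for nucleotide supply genes, at 3736 CPM, cell 1 for sarcomere genes, at the low value of 19118 CPM, and cell 5 for fibroblast genes, at 60545 CPM.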

How the results depend on the processing

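No paired analysis was possible because the numbers in the titles pair no cells and no test was run. The S phase median was above 0 in every setting. With each cell left out in turn it ran from 1.56 (without cell 8) to 2.66 and the G2/M median from 1.56 (without cell 8) to 5.97. Genes at least 2-fold higher numbered 3263 to 3993, at least 2-fold lower 3366 to 4220, non-overlapping higher 92 to 190 and non-overlapping lower 7 to 24. By the difference of mean log2(CPM + 1) 1266 genes were at least 2-fold lower and the G2/M median was 1.65, and after thinning that median was 4.53. Non-overlapping lower genes numbered 10 with TMM and 11 with DESeq2 factors. In title numbers 21 to 30 the non-overlapping counts were 641 higher and 297 lower and the S phase median was 3.23. In title numbers 1 to 10 they were 2943 and 418, with medians of 1.72 for S phase and 1.58 for G2/M. Without cells 5 and 8 they were 298 and 23, with medians of 1.75 and 1.53. Among values at least 2-fold apart, signs turned for the fibroblast median (-7.67 to 1.79 with each cell left out, the latter without cell 5, 2.15 in title numbers 21 to 30, 0.19 without cells 5 and 8), the apoptosis median (-0.20 in title numbers 1 to 10), Ccna2 (-5.64 without cell 8 to 11.37 without cell 2, -3.53 in title numbers 1 to 10, -5.86 without cells 5 and 8) and Cdk1 (-0.22 without cell 8 to 4.19 without cell 7, -0.47 without cells 5 and 8), and the cause was not tested. Smaller values turned too, among them Ect2 (-9.72), Ccne2 (-7.32), the nuclear lamina median (-0.31) and the inhibitor median (-0.29) without cell 8, and the cohesion (-0.64) and ribosome biogenesis (-0.61) medians in title numbers 1 to 10. Medians near 0 of the identity, cytokinesis, fatty acid oxidation, oxidative phosphorylation, stress, glycolysis and sarcomere lists also crossed 0. With fewer cells a set separates more easily, and 1 count in the shallowest cell is already 0.13 CPM, which limits what can be read of genes listed at 0.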

Other observations

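Other groups held values that belong to no comparison above. Myl7, the atrial light chain, was at 733 CPM in cell 4, 270.0 CPM in cell 9 and 871 CPM in cell 11 and at 31.8 CPM in cell 8, while the replication-low cells ran from 3.50 to 173 CPM. The 3 replication-high cells other than cell 8 were thus above every replication-low cell for this gene, and the log2 ratio of 2.34 was 2.87 without cell 8. Myl4, another atrial light chain, was at 1913, 922 and 1418 CPM in cells 4, 9 and 11 and at 19.99 CPM in cell 8, beside 50.2 to 961 CPM. The atrial list, which holds both genes, had 2 of 6 tested genes at least 2-fold higher and none at least 2-fold lower. Without cell 8 these counts were 3 and 1. Of all genes 29.5% were at least 2-fold higher and 30.6% at least 2-fold lower.

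Hspa1a, a heat shock chaperone, was at 1525 CPM in cell 4 and 1883 CPM in cell 9 but at 0.85 CPM in cell 8 and 0 in cell 11, with at most 195 CPM in the replication-low set. Dnajb1, its cochaperone, was at 1353 and 1475 CPM in cells 4 and 9, 307 CPM in cell 11 and 64.2 CPM in cell 8, and up to 724 CPM in the replication-low set. The stress list as a whole had 5 of 20 genes at least 2-fold higher and 5 at least 2-fold lower, and the median was -0.06, beside 29.5% higher and 30.6% lower of all genes tested.

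Slc2a1, a glucose transporter, was at 1239.9 CPM in cell 11, 417 CPM in cell 9, 115 CPM in cell 8 and 54.7 CPM in cell 4, and at most 320 CPM in the replication-low cells. Of 17 glycolysis genes 1 was at least 2-fold higher and none at least 2-fold lower, or 2 and none without cell 8. These counts stand beside 29.5% and 30.6% of all genes, or 27.2% and 33% without cell 8. Rpl4, a ribosomal protein gene, was at 4307 to 5417 CPM in the replication-high cells and 1028 to 35621 CPM in the others, with the highest value in cell 1.

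Of 12 apoptosis genes 6 were at least 2-fold higher and 2 at least 2-fold lower, and the median was 1.19, or 0.44 without cell 8, and several rested on 1 cell. These shares are read beside the 29.5% and 30.6% of all genes. Bbc3 had its counts in cell 9 alone, at 10.4 CPM, and Fas was at 43.2 CPM in cell 6 with 2 counts in the replication-high cells. The Y-linked gene Eif2s3y had no count in cells 9 and 11 of the replication-high and in 2 cells of the replication-low set, and reached 236 and 1079 CPM in the 2 sets.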
